A study of Homo sapiens with 46 samples.

Results

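The 10 genes described here regulate or mark mesoderm formation, and their RNA was measured in the compartments of cells from 4 cultures: HAND1, TBXT, FOXF1, MESP1, TWIST1, TBX3 and SNAI2, which encode transcription factors, PDGFRA and KDR, which encode receptors, and HAPLN1, which encodes a matrix protein. Members were found by exact gene symbol in the 4 count tables that were each built on the transcript assembly of 1 culture, and 8 of the 10 members were listed in at least 1 of them, out of 21183 genes. The hPSC table listed 4 members (HAPLN1, KDR, PDGFRA and TBX3), and the ectoderm table listed 5 (FOXF1, HAPLN1, KDR, PDGFRA and SNAI2). The endoderm table listed 8, lacking MESP1 and TWIST1, and the mesoderm table listed 6, lacking FOXF1, KDR, MESP1 and TWIST1. MESP1, an early cardiovascular mesoderm factor, and TWIST1, a mesenchymal factor, were in none of the 4 tables, and HAPLN1 and PDGFRA were the members in all 4. A gene that a table does not list has no value there, which is not a measured zero.

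The cells were the H1 human embryonic stem cell line, 1 established line, kept as pluripotent cells (hPSC) on Matrigel in mTeSR1 or differentiated in dishes. Mesoderm cultures received VEGF and BMP4 at 100 ng/ml each and bFGF at 10 ng/ml, with Activin A at 100 ng/ml during the first 24 h. Endoderm cultures received WNT3A with Activin A at 100 ng/ml, and ectoderm cultures received A83-01, PNU-74654 and dorsomorphin at 2 µM each in medium with serum replacement. The labels give collection after 5 days. No sample label names actinomycin D, although the text of the series does. Short-read RNA-seq was made from cytoplasm, from a portion of the nuclear pellet (nucleus), and from that pellet after detergent and urea lysis, as supernatant (nucleoplasm) and pellet (chromatin). All fractionation buffers held the RNA polymerase II inhibitor α-amanitin. There were 46 libraries in 16 groups, 15 groups of 3 libraries and 1 library for mesoderm nucleoplasm. The labels call the libraries repeats and do not say that they came from separate dishes, so p-values measure the spread between these libraries, which may be technical.

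During gastrulation, epiblast cells pass through the primitive streak, where TBXT (Brachyury) is switched on, and leave as mesoderm or definitive endoderm. Mesoderm that moves to the sides forms the lateral plate, which expresses HAND1 and FOXF1 and gives rise to heart, vessels and body wall. SNAI2 and TWIST1 repress epithelial genes as cells become migratory, PDGFRA and KDR receive PDGF and VEGF signals, and HAPLN1 ties proteoglycans to hyaluronan in the matrix around cells. Inside the cell, a finished mRNA is exported to cytoplasm, while unfinished or retained RNA stays with chromatin and nucleoplasm.

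Library totals ran from 4990408 to 21298678 counts, the lowest in mesoderm chromatin. Mitochondrial transcripts took 5.84% to 7.46% of counts in mesoderm cytoplasm and 1.11% to 1.36% in mesoderm nucleus, whereas in the other 3 cell types they took 0.399% to 1.58% in cytoplasm and 8.09% to 16.1% in nucleus. Mesoderm chromatin replicate 3 stood apart, with 5.53% against 1.12% and 0.769% in the other two libraries of its group. Of the nuclear control RNAs tested (MALAT1, NEAT1, KCNQ1OT1 and SNHG14), 0 were higher and 3 of 4 lower in cytoplasm than in nucleus in mesoderm, but 4 of 4 were higher in ectoderm, 2 of 3 higher and 1 lower in hPSC, and 1 of 3 higher and 1 lower in endoderm. The cytoplasmic controls ACTB, GAPDH, RPLP0 and EEF1A1 were higher in cytoplasm in 4 of 4 cases in mesoderm and in hPSC and in 3 of 4 in endoderm, while in ectoderm 0 were higher and 2 lower. In summed TPM (the authors' level scaled for transcript length), the nuclear controls of hPSC gave 125 to 150 in cytoplasm and 177 to 237 in nucleus, against the order that CPM gave for MALAT1 (208 to 252 and 74.1 to 95.7), and those of ectoderm gave 198 to 422 and 16.1 to 82.3. The controls therefore go against the cytoplasm and nucleus labels of ectoderm, and in part against those of hPSC and endoderm. The names are used as labelled, and contrasts with chromatin are given beside those with nucleus. The nuclear controls did not set ectoderm chromatin apart either, at 301 to 370 summed TPM, within the range of ectoderm cytoplasm. The ectoderm cytoplasmic controls were lower in chromatin (13479 to 20712) than in cytoplasm (27110 to 33383). In hPSC, endoderm and mesoderm the nuclear controls were higher in chromatin (481 to 746, 341 to 426 and 852 to 1062) than in cytoplasm (125 to 150, 94.9 to 126 and 117 to 151). Lineage labels were checked on summed TPM in cytoplasm. Of 7 endoderm markers, 6 were listed in endoderm, where their sum was 172.3 to 240.0, and only GATA6, which is also a lateral plate gene, was listed in mesoderm, at 1.43 to 1.90. Of 19 lateral plate and cardiac genes, 13 were listed in mesoderm (268 to 311) and 8 in endoderm (213 to 287). Of 15 primitive streak genes, 11 were listed in endoderm (73.8 to 96.9), 4 in ectoderm (54.3 to 73.3) and 3 in mesoderm (2.86 to 4.01). Pluripotency genes summed to 3408 to 3911 in hPSC, 2408 to 2811 in endoderm, 1454 to 1636 in mesoderm and 656 to 1026 in ectoderm. Of 7 neural ectoderm genes, 6 were listed in ectoderm (320 to 438), 1 in hPSC (26.5 to 37.0), 2 in endoderm (15.4 to 21.8) and 2 in mesoderm (34.15 to 36.8). Neural crest genes were highest in mesoderm (66.1 to 84.0), against 23.3 to 31.2 in ectoderm.

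**Figure D1:**
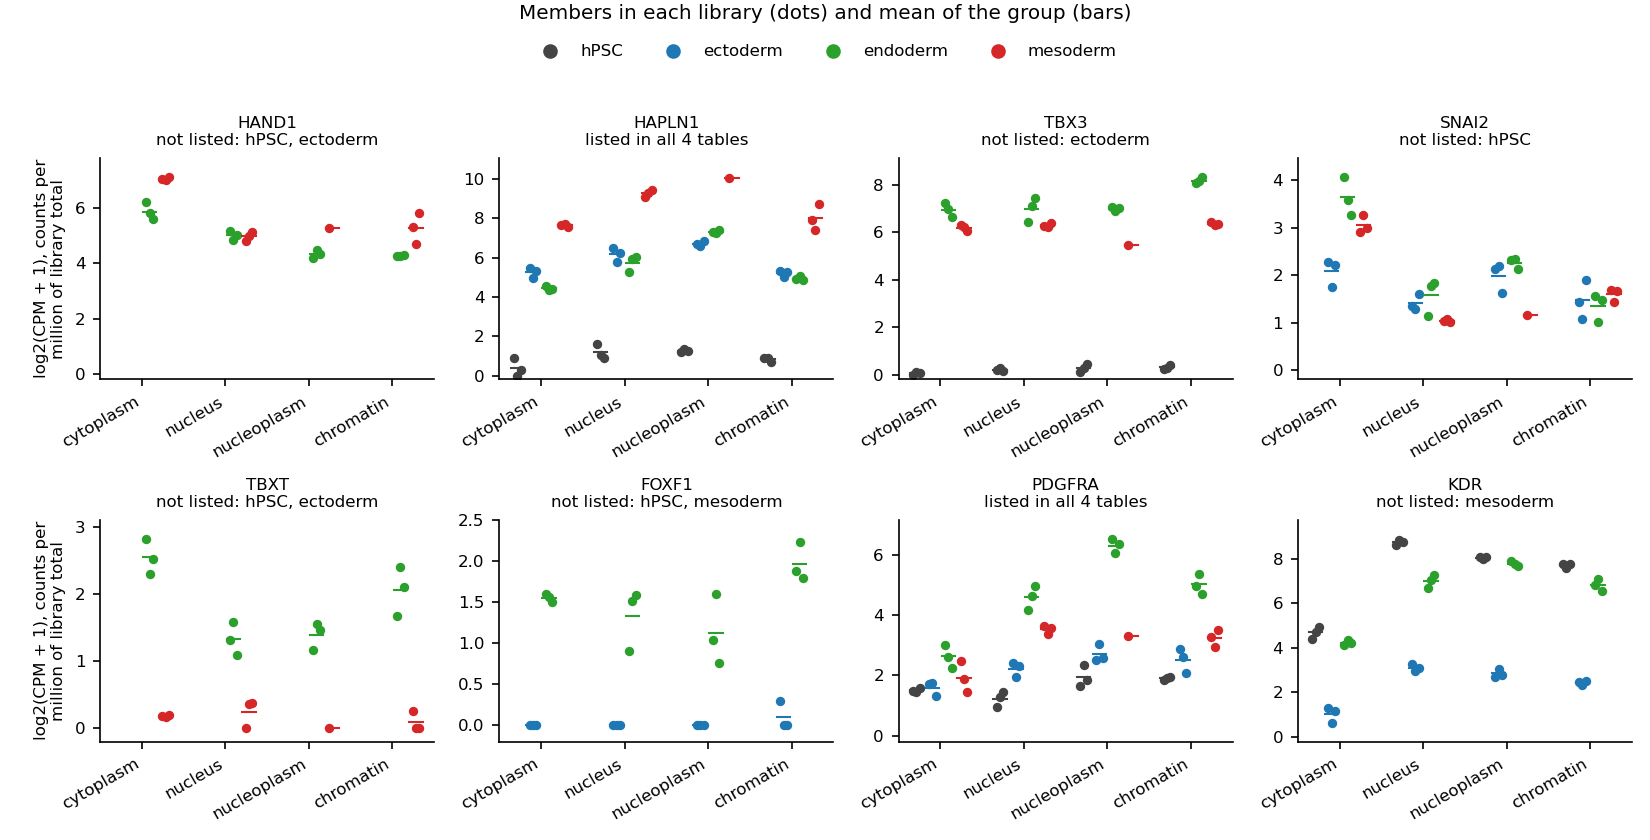
Level of each listed member as log2(CPM + 1), where CPM is the library-scaled count, in 4 fractions (x axis) and 4 cell types (colours), with 1 dot per library and a bar at the mean of the dots. HAPLN1 is highest in mesoderm in every fraction, TBXT is near 0 in mesoderm, and KDR is lowest in cytoplasm in each cell type that lists it.

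HAND1, a basic helix-loop-helix factor of lateral and extraembryonic mesoderm, lies on the minus strand at chr5:154474972-154478264 of hg38 and was listed in mesoderm and endoderm. As CPM, the level used below unless TPM is named, mesoderm cytoplasm held 132, 127 and 136, mesoderm nucleus 26.6, 30.9 and 34.3, and mesoderm chromatin 38.7, 24.9 and 55.1, with 37.4 in the single nucleoplasm library. Every cytoplasmic library of mesoderm lay above every library of its other fractions. Endoderm held 72.3, 54.5 and 47.5 in cytoplasm, 35.1, 27.6 and 31.5 in nucleus, 17, 21.1 and 19 in nucleoplasm and 18.2, 18.4 and 18.5 in chromatin. HAND1 in mesoderm cytoplasm exceeded that in endoderm cytoplasm (log2 change 1.35, SE 0.13, adjusted p = 9.46e-07, edgeR's quasi-likelihood test), and the libraries did not overlap. Each adjusted p below is from that test unless TPM or another test is named. Benjamini-Hochberg adjustment was over all genes tested or, for isoforms, over all isoforms tested. In nucleus the same comparison gave -0.59 (SE 0.25, adjusted p = 0.0598) with overlapping libraries, and it turned to 0.03 when libraries were scaled by total counts alone and to 0.67 in TPM, where it passed in the opposite direction (limma, adjusted p = 0.0167). In chromatin HAND1 was higher in mesoderm by 0.94 (SE 0.26, adjusted p = 0.0162), a call lost in 3 of 6 fits, those that left out 1 endoderm chromatin library each (replicate 1, 2 or 3, adjusted p = 0.0611, 0.0529 and 0.0547). Without mesoderm chromatin replicate 3 it was 0.72 (adjusted p = 0.0203). In these bulk samples, fewer cells making HAND1 and less HAND1 RNA per cell cannot be told apart, and this holds for every member.

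Sequence upstream of HAND1 is shown with that of TBXT, because HAND1 was higher in mesoderm than in endoderm cytoplasm and TBXT lower, and with that of KDR, which the mesoderm table does not list. The sequences are from RefSeq on GRCh38.p14 (5 of the 10 members had an entry), run 5′ to 3′ on the minus strand, and stop where the first annotated exon of the downstream GENCODE v29 transcript starts. Capitals mark matches on either strand to the TATA box letters TATAA, the CAAT box letters CCAAT, the SP1 letters GGGCGG, the GATA factor letters GATAA, the TCF letters CTTTGAT, the E-box letters CANNTG with N any base, or the T-box letters TCACACC.
HAND1, chr5:154478265-154478477: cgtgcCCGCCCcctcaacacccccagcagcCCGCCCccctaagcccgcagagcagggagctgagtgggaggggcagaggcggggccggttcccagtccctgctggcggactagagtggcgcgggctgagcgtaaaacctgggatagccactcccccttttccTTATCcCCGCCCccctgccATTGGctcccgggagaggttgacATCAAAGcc
TBXT, chr6:166167878-166168101: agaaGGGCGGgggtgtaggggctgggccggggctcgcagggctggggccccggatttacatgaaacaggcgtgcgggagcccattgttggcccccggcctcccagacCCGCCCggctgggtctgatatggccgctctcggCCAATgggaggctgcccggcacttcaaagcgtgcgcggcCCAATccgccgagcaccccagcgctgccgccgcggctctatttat
KDR, chr4:55125596-55125845: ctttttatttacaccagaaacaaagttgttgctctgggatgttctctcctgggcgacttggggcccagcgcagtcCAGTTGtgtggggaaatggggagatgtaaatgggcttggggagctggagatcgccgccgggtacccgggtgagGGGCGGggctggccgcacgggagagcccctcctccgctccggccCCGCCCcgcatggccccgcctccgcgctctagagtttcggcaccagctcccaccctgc
The HAND1 stretch of 213 bases held 3 matches to GGGCGG (37.9% of 35116 promoters hold at least 1 over the same length), 1 to CCAAT (29.1%), 1 to GATAA (18.1%) and 1 to CTTTGAT (1.98%), the core letters read by TCF and LEF factors of the WNT pathway. The TBXT stretch of 224 bases, which lies in an intron of longer TBXT transcripts, held 2 matches to CCAAT (30.2%) and 2 to GGGCGG (39.4%). The KDR stretch of 250 bases held 2 matches to GGGCGG (42.6%) and 1 to the E-box letters CANNTG (61.8%). These are matches of letters in these windows only.

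TBXT, the T-box factor of the primitive streak, lies at chr6:166157656-166168700 on the minus strand. In endoderm it measured 6.10, 3.95 and 4.76 CPM in cytoplasm, 1.48, 2.01 and 1.14 in nucleus, 1.26, 1.95 and 1.75 in nucleoplasm and 2.19, 4.30 and 3.32 in chromatin. In mesoderm no library held more than 3 counts of TBXT: cytoplasm held 2, 2 and 2 counts, nucleus 0, 2 and 3, chromatin 1, 0 and 0, and the nucleoplasm library 0, which allows up to 0.187 CPM. Summed over libraries, TBXT was 38.2 times as high in endoderm as in mesoderm cytoplasm (253 against 6 counts, 95% exact binomial interval 17.3 to 105 for counting error only). In nucleus the ratio was 9.26 (63 against 5 counts, interval 3.76 to 29.5). TBXT passed the low-count filter of that comparison through endoderm alone, so its test (-5.00 in cytoplasm, SE 0.41, adjusted p = 2.16e-07) describes the size only. Within endoderm TBXT favoured cytoplasm over nucleus (log2 change 0.97, SE 0.35, adjusted p = 0.0224), a call lost without endoderm nucleus replicate 3 (0.72, adjusted p = 0.106) or without endoderm cytoplasm replicate 1 (0.80, adjusted p = 0.0884). An assembly that combined all cultures, deposited for the ectoderm libraries, gave these libraries at most 2 counts of TBXT and 3 of HAND1.

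FOXF1, a forkhead factor of splanchnic mesoderm at chr16:86510527-86515418, was measured at 2.02, 1.95 and 1.82 CPM in endoderm cytoplasm and at 2.68, 3.67 and 2.47 in endoderm chromatin. Against this, ectoderm held 0 counts in 11 of 12 libraries and 3 counts in the other, a chromatin library. In cytoplasm FOXF1 was at least 32.7-fold higher in endoderm than in ectoderm, taken against 3 counts over the ectoderm group. FOXF1 passed in no endoderm contrast between fractions: cytoplasm against nucleus gave -0.38 (SE 0.39, adjusted p = 0.402), chromatin against cytoplasm 0.76 (SE 0.38, adjusted p = 0.0844) and chromatin against nucleoplasm 0.64 (SE 0.40, adjusted p = 0.195). The last passed with total-count scaling (1.25, adjusted p = 0.0257).

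SNAI2, a zinc-finger repressor of E-cadherin encoded on the minus strand of chromosome 8, was low throughout, and in mesoderm and endoderm it was highest in cytoplasm. Mesoderm held 6.51, 8.69 and 6.96 CPM in cytoplasm and 1.03, 1.11 and 1.00 in nucleus, from 8 to 14 counts a nucleus library. Endoderm held 15.8, 10.9 and 8.65 in cytoplasm and 1.21, 2.43 and 2.54 in nucleus, and ectoderm 3.86, 2.39 and 3.63 in cytoplasm and 1.55, 1.46 and 2.03 in nucleus. Cytoplasm and nucleus did not overlap in any of the 3 cell types. SNAI2 was higher in cytoplasm by 2.91 in mesoderm (SE 0.29, adjusted p = 9.47e-06) and by 1.84 in endoderm (SE 0.29, adjusted p = 5.18e-05). In ectoderm the difference of 0.63 did not pass (SE 0.32, adjusted p = 0.116), and it passed when libraries were scaled by total counts (0.99, adjusted p = 0.0247).

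TBX3, a T-box repressor of heart, limb and pluripotent cells, lies at chr12:114670254-114684164 on the minus strand. Mesoderm held 78.8, 73.5 and 65.1 CPM in cytoplasm, 76.0, 73.8 and 83.3 in nucleus, 84.8, 79.4 and 81.0 in chromatin and 43.7 in the nucleoplasm library. Endoderm held 149, 124 and 100 in cytoplasm, 85.1, 136 and 172 in nucleus, 132, 117 and 129 in nucleoplasm and 266, 286 and 318 in chromatin. Its endoderm chromatin libraries were thus the highest of all, while 3 of the 4 mesoderm fractions lay close together. In hPSC no library held more than 5 counts of TBX3. Summed over libraries the mesoderm to hPSC ratio was 1396 in cytoplasm (3349 against 2 counts, interval 386 to 11540) and the endoderm to hPSC ratio 2410 (6378 against 2 counts, interval 667 to 19910). TBX3 was lower in mesoderm than in endoderm in cytoplasm (log2 change -0.62, SE 0.12, adjusted p = 6.00e-04) and in chromatin (log2 change -1.98, SE 0.20, adjusted p = 3.07e-05). In nucleus the difference was -1.22 (SE 0.20, adjusted p = 5.18e-04), but -0.69 with total-count scaling (adjusted p = 0.0551) and -0.02 in the authors' TPM.

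The mesoderm table splits TBX3 between 2 isoforms matched to the Ensembl transcripts ENST00000349155 and ENST00000257566. In GENCODE v29 their coding sequences differ by 1 exon of 60 bases (20 codons) that only ENST00000257566 holds, at chr12:114679913-114679972, an alternatively spliced insert of the T-box DNA-binding region. It is printed because the share of the isoform that holds it varied between fractions.
TBX3 exon of ENST00000257566, minus strand: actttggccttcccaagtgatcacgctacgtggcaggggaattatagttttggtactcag
The isoform with this exon took 30.8%, 31.6% and 23.2% of TBX3 counts in the mesoderm cytoplasm libraries, 37.4%, 40.0% and 36.7% in nucleus and 60.8%, 42.5% and 48.2% in chromatin. In the nucleoplasm library it took 74.7% (523 of 700 counts, 95% exact binomial interval 71.3% to 77.9%, counting error only). The 3 fractions with replicates did not overlap, in the order cytoplasm, nucleus, chromatin. Each of the 3 pairwise differences had an exact two-sided permutation p = 0.1, the smallest that 3 against 3 libraries can give (Benjamini-Hochberg adjusted 0.1). As levels, neither isoform passed between cytoplasm and nucleus: the isoform with the exon gave -0.17 (SE 0.20, adjusted p = 0.575) and the other 0.44 (SE 0.17, adjusted p = 0.0797). In TPM both passed as lower in cytoplasm, at -1.41 (limma, adjusted p = 0.00214) and -0.89 (adjusted p = 0.00558). In endoderm ENST00000349155 took 93.2% to 98.4% of TBX3 counts in every library, and the rest fell to an isoform with no Ensembl transcript. The endoderm assembly lists no isoform matched to ENST00000257566, so its share has no value there, which is not a measured zero. Across all members, 1 of 3 isoforms tested passed between cytoplasm and nucleus in hPSC (39.7% of isoforms), 2 of 5 in ectoderm (13.7%), 5 of 10 in endoderm (42.1%) and 3 of 9 in mesoderm (32.0%). The isoforms of HAPLN1 in hPSC and of KDR in ectoderm were tested through the nuclear fractions alone, so those counts are not read against the shares. Isoform counts are the authors' estimates from short reads, and reads outside the exon are shared between the isoforms.

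**Figure D2:**
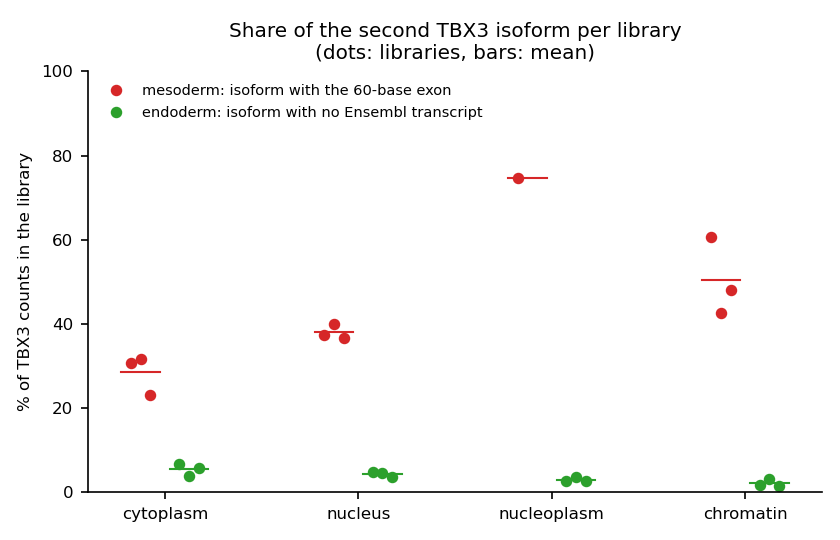
Share of TBX3 counts (% of the gene's counts in the library, y axis) taken by the second isoform in each fraction (x axis), for mesoderm (red, the isoform with the 60-base exon) and endoderm (green, the isoform with no Ensembl transcript), with 1 dot per library and a bar at the mean. The mesoderm shares run from 23.2% in a cytoplasm library to 74.7% in the nucleoplasm library, and those of the endoderm isoform stay below 7%.

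PDGFRA, the receptor tyrosine kinase for PDGF in mesenchyme, lies at chr4:54229097-54298247 on the plus strand and was low in mesoderm. Mesoderm held 4.56, 2.68 and 1.70 CPM in cytoplasm, 11.6, 9.33 and 10.8 in nucleus, 8.62, 6.62 and 10.3 in chromatin and 8.94 in nucleoplasm. Endoderm held 7.13, 5.17 and 3.76 in cytoplasm, 17.1, 23.8 and 30.4 in nucleus, 90.9, 65.6 and 81.8 in nucleoplasm and 30.7, 40.9 and 25.4 in chromatin, so that each of its nuclear fractions lay above its cytoplasm. PDGFRA in hPSC cytoplasm was at 1.80, 1.74 and 1.99, and in ectoderm cytoplasm at 2.24, 2.33 and 1.46. Mesoderm PDGFRA was lower than endoderm in nucleus (log2 change -1.64, SE 0.23, adjusted p = 2.22e-04) and in chromatin (log2 change -2.08, SE 0.26, adjusted p = 1.30e-04). In cytoplasm the difference of -0.68 did not pass (SE 0.31, adjusted p = 0.0756), but it passed with total-count scaling (-0.83, adjusted p = 0.0347), with a replicate block (-0.72, adjusted p = 0.0202) and in TPM (-1.06, limma, adjusted p = 2.67e-06). Against hPSC, mesoderm PDGFRA was higher in nucleus by 2.78 (SE 0.27, adjusted p = 2.54e-07) and in chromatin by 1.73 (SE 0.28, adjusted p = 0.00114), whereas in cytoplasm 0.61 did not pass (SE 0.35, adjusted p = 0.147). The mesoderm table divides PDGFRA among 5 isoforms and the ectoderm table among 2, and the counts moved from one isoform to another between replicate libraries: 1 mesoderm isoform took 100% of PDGFRA counts in cytoplasm replicate 2 and 0% in cytoplasm replicate 3. Only gene sums are therefore compared for PDGFRA.

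KDR, the main VEGF receptor of endothelial precursors, lies at chr4:55078259-55125595 on the minus strand, and hPSC held the highest level of it in nucleus. The hPSC libraries measured 391, 463 and 425 CPM in nucleus, 268, 255 and 269 in nucleoplasm, 215, 191 and 214 in chromatin and only 20.3, 25.5 and 29.9 in cytoplasm. Endoderm measured 101, 131 and 151 in nucleus, 234, 215 and 205 in nucleoplasm, 112, 136 and 91.7 in chromatin and 16.3, 19.6 and 17.7 in cytoplasm. In ectoderm KDR stayed between 0.555 and 8.66 in all 12 libraries. KDR RNA was depleted from cytoplasm relative to nucleus in hPSC (log2 change -4.14, SE 0.15, adjusted p = 1.69e-10), in endoderm (log2 change -3.53, SE 0.17, adjusted p = 5.86e-10) and in ectoderm (log2 change -3.13, SE 0.26, adjusted p = 5.15e-07). In cytoplasm, ectoderm KDR fell by 4.67 relative to hPSC (SE 0.27, adjusted p = 3.05e-07) and endoderm KDR by 0.67 (SE 0.16, adjusted p = 0.00658). The ectoderm cytoplasm libraries held only 21, 10 and 23 counts of KDR. KDR passed the low-count filter of the ectoderm fit through the nuclear fractions alone, and that of the ectoderm comparison with hPSC through hPSC alone. Both ectoderm tests therefore describe the size only.

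HAPLN1, the link protein that fixes aggrecan and versican to hyaluronan, lies at chr5:83637805-83721613 on the minus strand and was the member with the highest mesoderm values. Mesoderm held 205, 209 and 191 CPM in cytoplasm, 540, 632 and 692 in nucleus, 241, 170 and 428 in chromatin and 1086 in the nucleoplasm library. Ectoderm held 44.2, 30.1 and 39.0 in cytoplasm and 102, 95.4 and 113 in nucleoplasm, and endoderm 22.4, 19.6 and 20.0 in cytoplasm and 158, 151 and 167 in nucleoplasm. No hPSC library exceeded 2.08 CPM. Nucleoplasm was the highest fraction of HAPLN1 in mesoderm, ectoderm and endoderm, and the mesoderm libraries overlapped no library of another cell type in the same fraction. In mesoderm the order of fractions rests on 1 nucleoplasm library, whose 355 TPM lay within the range of the nucleus libraries (262 to 380 TPM). HAPLN1 in mesoderm cytoplasm exceeded ectoderm by 2.45 (SE 0.10, adjusted p = 3.99e-10) and endoderm by 3.45 (SE 0.10, adjusted p = 1.28e-11). Against hPSC, summed counts gave a ratio of 777 (9318 against 10 counts, interval 422 to 1621). The excess over endoderm was 3.04 in nucleus (SE 0.21) and 3.06 in chromatin (SE 0.30), and that over ectoderm 2.78 in nucleus (SE 0.15) and 2.98 in chromatin (SE 0.30), all 4 with adjusted p of 3.28e-05 or less. On the length-scaled TPM level, which allows genes to be set side by side, mesoderm cytoplasm held 102 ± 3.9 of HAND1, 50.2 ± 5.6 of HAPLN1, 18.6 ± 2.9 of TBX3, 4.70 ± 0.88 of SNAI2, 0.523 ± 0.26 of PDGFRA and 0.0767 ± 0.0058 of TBXT (SD, n = 3). In mesoderm nucleus HAPLN1 came first, at 318 ± 59 TPM, ahead of HAND1 at 49.6 ± 9.5 and TBX3 at 41.5 ± 5.5 (SD, n = 3).

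**Figure D3:**
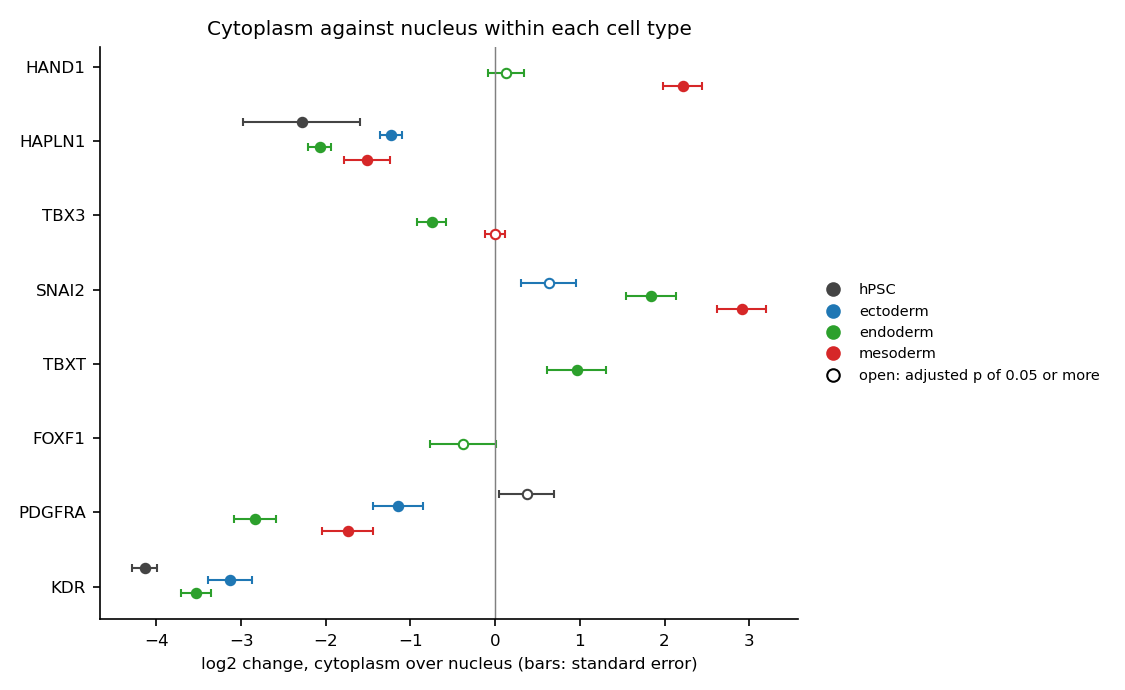
Log2 change of cytoplasm over nucleus (x axis, bars show the standard error) for each tested member (y axis) in each cell type (colours), with filled dots for adjusted p under 0.05. SNAI2 lies right of 0 in each cell type shown, and HAPLN1 and KDR lie left of 0 in each. HAPLN1 in hPSC and KDR in ectoderm passed the low-count filter through the nuclear fractions alone.

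In mesoderm 5 of 6 members passed the low-count filter and 4 passed the test, HAND1 (2.22, SE 0.23, adjusted p = 1.09e-05) and SNAI2 higher in cytoplasm, and HAPLN1 (-1.51, SE 0.27, adjusted p = 5.17e-04) and PDGFRA (-1.74, SE 0.30, adjusted p = 4.24e-04) lower, while TBX3 measured 0.00 (SE 0.12, adjusted p = 0.993) and, in the authors' TPM, -1.12 (limma, adjusted p = 0.000123). Over all 14408 genes tested there, 63.3% passed, 32.1% higher and 31.2% lower, so most genes passed, as most members did. In endoderm 6 of 8 passed (69.8% of 12693 genes), with SNAI2 and TBXT higher and HAPLN1 (-2.07), KDR (-3.53), PDGFRA (-2.83) and TBX3 (-0.75) lower in cytoplasm, the last changing to -0.06 with total-count scaling. HAND1 in endoderm measured 0.13 (SE 0.21, adjusted p = 0.594) and 0.90 with total-count scaling (adjusted p = 0.000423). In ectoderm 3 of 4 tested passed (53.5% of 15668 genes), all lower in cytoplasm: KDR, HAPLN1 (-1.23) and PDGFRA (-1.15). KDR passed the low-count filter there through the nuclear fractions alone, so 3 of 4 is not read against the share of all genes. In hPSC 2 of 3 tested passed (65.7% of 13997 genes), KDR and HAPLN1 (-2.29), and PDGFRA measured 0.37 (SE 0.33, adjusted p = 0.328). HAPLN1 held 7, 0 and 3 counts in the hPSC cytoplasm libraries and passed the low-count filter through the nuclear fractions alone. Its hPSC value therefore describes the size only, and 2 of 3 is not read against the share of all genes. TBX3 in hPSC, FOXF1 in ectoderm and TBXT in mesoderm had too few counts to be tested.

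Chromatin was also set against cytoplasm, a contrast without the nucleus libraries that shares the 3 cytoplasm libraries of each cell type with the one above. In mesoderm HAND1 was lower in chromatin (log2 change -1.96, SE 0.23) and SNAI2 (log2 change -2.08, SE 0.28), and PDGFRA was higher by 1.30 (SE 0.31, adjusted p = 0.00301), so 3 of 5 tested members passed (66.1% of genes). HAPLN1 did not pass (0.25, SE 0.27, adjusted p = 0.418), and the value was -0.19 without mesoderm chromatin replicate 3, which had the highest HAPLN1 (428 CPM, against 241 and 170) and mitochondrial share of its group, and 1.32 in TPM (limma, adjusted p = 0.000981). TBX3 measured -0.03 (SE 0.12, adjusted p = 0.817) and 1.14 in TPM (limma, adjusted p = 9.83e-05). In endoderm 6 of 8 passed (72.9% of genes): KDR (2.83), PDGFRA (2.75), TBX3 (1.39) and HAPLN1 (0.69) were higher in chromatin, and HAND1 (-1.49) and SNAI2 (-2.69) lower. In ectoderm 3 of 4 passed (61.9% of genes), KDR (1.83) and PDGFRA (1.07) higher and SNAI2 (-1.04) lower in chromatin, and the PDGFRA call was lost without ectoderm chromatin replicate 1 (0.78, adjusted p = 0.0601). In hPSC 1 of 3 passed (63.7% of genes), KDR at 2.87 (SE 0.14, adjusted p = 8.26e-09). KDR in ectoderm and HAPLN1 in hPSC were tested here through the nuclear fractions alone. The ectoderm and hPSC counts of members are therefore not read against the shares of all genes.

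Within the nucleus, chromatin was set against nucleoplasm in the 3 cell types with replicates of both. HAPLN1 was lower in chromatin in endoderm (log2 change -2.99, SE 0.14, adjusted p = 9.15e-09) and in ectoderm (log2 change -1.72, SE 0.13, adjusted p = 3.65e-06). In endoderm KDR (-1.52), PDGFRA (-1.88), SNAI2 (-1.80) and HAND1 (-0.63) were also lower in chromatin, and TBX3 was higher (0.62, SE 0.17, adjusted p = 0.00566), making 6 of 8 members (53.6% of genes). The HAND1 call was lost in 5 of 6 fits that left out 1 library, and its value was -0.01 with total-count scaling and 0.02 in TPM. In ectoderm 3 of 4 passed (43.2% of genes), HAPLN1, KDR (-0.69) and SNAI2 (-0.89). The KDR call was lost without ectoderm nucleoplasm replicate 2 (-0.60, adjusted p = 0.0834), and the SNAI2 call in 4 of 6 such fits. In hPSC 1 of 3 passed (30.6% of genes), KDR at -0.59 (SE 0.13, adjusted p = 0.00507).

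**Figure D4:**
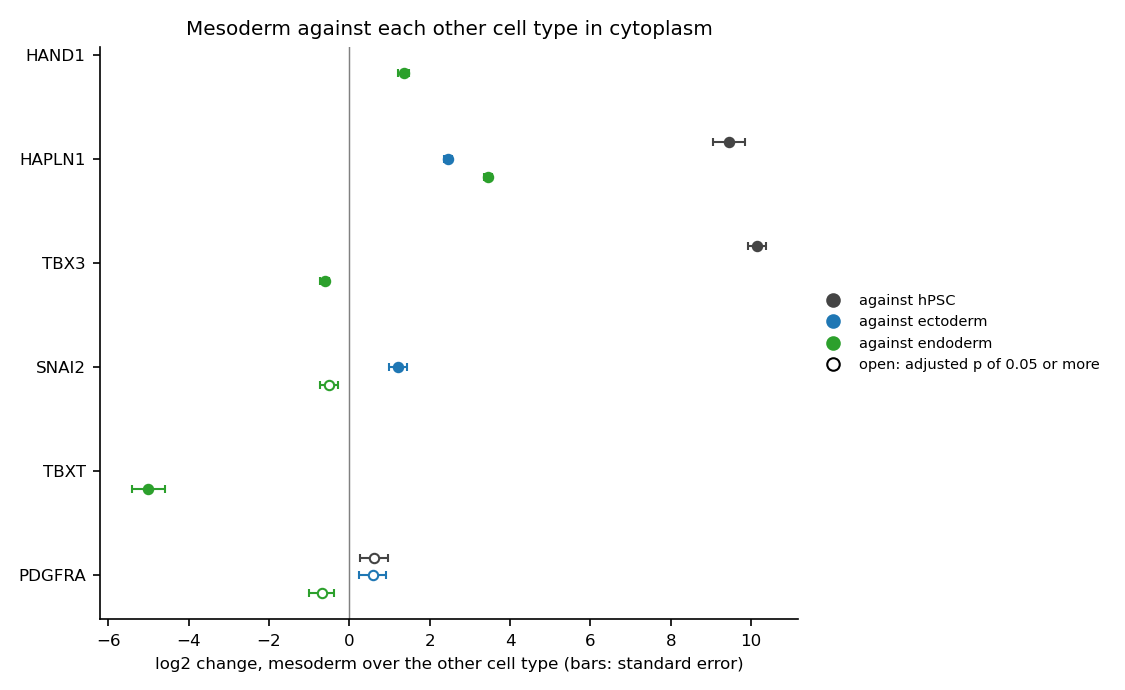
Log2 change of mesoderm over hPSC, ectoderm and endoderm in cytoplasm (x axis, bars show the standard error) for the members tested (y axis), with filled dots for adjusted p under 0.05. HAPLN1 is right of 0 against each cell type, and TBX3 is right of 0 against hPSC and left of 0 against endoderm. HAPLN1 and TBX3 against hPSC passed the low-count filter through mesoderm alone, and TBXT against endoderm through endoderm alone.

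Across cell types, mesoderm had the highest mean CPM in 8 of the 24 combinations of member and fraction that could be compared: all 4 for HAPLN1, 3 for HAND1 and 1 for SNAI2. Endoderm had the highest in the other 16, which include every fraction of PDGFRA, TBX3 and TBXT. This order is of means only, and TPM gave mesoderm 9 of 24. SNAI2 in chromatin was 2.03 in mesoderm and 1.85 in ectoderm, with overlapping libraries. HAND1 in nucleus was 31.4 in endoderm and 30.6 in mesoderm. Each nucleoplasm combination rests on 1 mesoderm library. Ectoderm and endoderm were each also set against hPSC in cytoplasm, where 2 of 3 (73.2% of genes) and 4 of 4 tested members (50.9%) passed. For mesoderm in cytoplasm, 2 of 3 tested members passed against hPSC (65.8% of genes), 2 of 3 against ectoderm (68.1%), the second being SNAI2 at 1.21 (SE 0.21, adjusted p = 2.59e-04), and 4 of 6 against endoderm (59.2%). There SNAI2 at -0.50 did not pass (SE 0.22, adjusted p = 0.0607), but with total-count scaling (-0.66, adjusted p = 0.0143) and in TPM (-0.49, limma, adjusted p = 0.0197) it passed, as did 6 of 6 members. In nucleus 3 of 3 passed against hPSC (70.8%), 3 of 3 against ectoderm (69.1%) and 5 of 6 against endoderm (64.9%). In nucleus SNAI2 was lower in mesoderm than in endoderm (log2 change -1.43, SE 0.37, adjusted p = 0.00722), -0.90 with total-count scaling (adjusted p = 0.101), and lower than in ectoderm (log2 change -1.02, SE 0.35, adjusted p = 0.0271), a call lost in 4 of 6 fits without 1 library, while TPM gave 0.15. In chromatin 3 of 3 passed against hPSC (42.8%), 2 of 3 against ectoderm (48.6%) and 5 of 6 against endoderm (34.1%). PDGFRA against ectoderm in chromatin (0.83, adjusted p = 0.0482) was lost in each of 6 fits that left out 1 library. These contrasts share the mesoderm libraries. Several of these calls were fixed by the low-count filter, so the counts of members are not read against the shares of all genes. TBX3 had at most 4 counts in any hPSC library of these 3 fractions and HAPLN1 held 7, 0 and 3 in hPSC cytoplasm, so against hPSC they were tested there through mesoderm, ectoderm or endoderm alone. TBXT, at no more than 3 counts in mesoderm, was tested against endoderm through endoderm alone in all 3 fractions. KDR, at 21, 10 and 23 counts in ectoderm cytoplasm, was tested in ectoderm against hPSC through hPSC alone.

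Whether the cytoplasm to nucleus balance differed between mesoderm and another cell type was tested as an interaction. HAND1 leaned to cytoplasm more in mesoderm than in endoderm by 2.06 (SE 0.27, adjusted p = 1.62e-04), and this was 1.16 with total-count scaling (adjusted p = 0.00212) and 0.59 in TPM (adjusted p = 0.0597). SNAI2 leaned to cytoplasm more in mesoderm than in ectoderm by 2.29 (SE 0.37, adjusted p = 1.73e-04), and this stayed past the threshold with total-count scaling (1.77, adjusted p = 0.00115). That difference takes the ectoderm fraction labels as given, although the controls went against them. Mesoderm nucleus held only 8 to 14 counts of SNAI2 a library. PDGFRA leaned to nucleus more in mesoderm than in hPSC (log2 change -2.01, SE 0.45, adjusted p = 0.00288). Against endoderm, PDGFRA (1.08, adjusted p = 0.0371), SNAI2 (1.07, adjusted p = 0.0481), TBX3 (0.74, adjusted p = 0.018) and HAPLN1 (0.55, adjusted p = 0.026) also passed, but the median over all genes was 0.22 in that fit and -0.62 with total-count scaling, where none of these 4 passed and TBX3 and HAPLN1 changed sign. In TPM, HAPLN1 passed in the opposite direction (-0.94, limma, adjusted p = 0.00923), and 0 members leaned to cytoplasm past the threshold. Over all genes 50.8% passed against endoderm, 61.9% against ectoderm and 37.9% against hPSC, while 5 of 6, 1 of 3 and 1 of 3 members did. The members tested include TBXT, with at most 3 counts a library in mesoderm, and TBX3, with at most 3 in hPSC cytoplasm and nucleus. They also include HAPLN1, with 7, 0 and 3 counts in hPSC cytoplasm. With so few counts the balance there is hardly measured, so the counts of members against endoderm and hPSC are not read against the shares of all genes. The mitochondrial share, which ran in opposite directions in mesoderm and the other cell types, moves with these contrasts, and its part in them was not tested.

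Other genes of the same pathways were taken from lists in which no member is counted. In mesoderm 11 of 13 hyaluronan matrix genes were tested between cytoplasm and nucleus, and 9 were lower and 0 higher in cytoplasm, as HAPLN1 was, with a median of -1.84 against 0.00 over all genes, of which 32.1% were higher and 31.2% lower. Versican (VCAN), a hyaluronan-binding proteoglycan that HAPLN1 secures, measured -3.50 (SE 0.16, adjusted p = 4.14e-07), and CD44, a hyaluronan receptor, -1.88 (SE 0.14, adjusted p = 1.64e-06). Of 19 lateral plate and cardiac genes, 11 were tested, 4 were higher and 1 lower in cytoplasm (median 0.55), with MSX2, a homeobox factor downstream of BMP, at 1.45 (SE 0.14, adjusted p = 7.02e-06). The summed TPM of the lateral plate and cardiac list ran the other way, at 268 to 311 in cytoplasm and 400 to 504 in nucleus. Of 10 PDGF and VEGF genes, 7 were tested, 5 were lower and 0 higher in cytoplasm (median -1.14), as PDGFRA was.

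Between mesoderm and hPSC in cytoplasm, 7 PDGF and VEGF genes were tested and 5 were higher and 1 lower in mesoderm (median 3.35, against 0.02 over all genes, of which 4140 of 12173 were higher). The list's summed TPM was not higher in mesoderm (51.0 to 64.7, 7 genes listed) than in hPSC (56.6 to 77.9, 9 listed). Among them NRP1, a co-receptor for VEGF, rose by 5.16 (SE 0.26, adjusted p = 6.70e-07), PDGFB, a PDGF ligand, by 4.20 (SE 0.14, adjusted p = 1.00e-07) and PDGFRB, the second PDGF receptor, by 3.54 (SE 0.20, adjusted p = 1.34e-06). Only 2 lateral plate genes could be tested against hPSC, MSX2 (7.65, SE 0.33) and BMP4, the ligand also added to the medium (6.06, SE 0.17), and both were higher in mesoderm. Together these 2 genes summed to only 2.04 to 2.95 TPM in hPSC cytoplasm. They may have passed the low-count filter through mesoderm alone, so the values describe the size only. Of 8 hyaluronan matrix genes tested, 2 were higher and 4 lower: BCAN, a neural proteoglycan, fell by 4.63 (SE 0.42), HAPLN3, another link protein, fell by 2.62 (SE 0.14), and CD44 rose by 2.40 (SE 0.17). Of 6 tested genes of epithelial-mesenchymal transition, the program that SNAI2 acts in, 4 were higher and 1 lower, led by fibronectin (FN1, 5.95, SE 0.19) and N-cadherin (CDH2, 2.46, SE 0.21). All 4 epithelial genes were tested and 3 were also higher in mesoderm, including E-cadherin (CDH1, 1.13, SE 0.14, adjusted p = 1.47e-04). Of 3 endothelial and blood genes tested, 1 was higher and 2 lower, with the VEGF receptor FLT1 down (log2 change -2.45, SE 0.21, adjusted p = 1.41e-05). That list's summed TPM was 15.7 to 19.7 in mesoderm (7 genes listed) and 8.63 to 10.5 in hPSC (5 listed).

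The genes most like HAPLN1 over the 16 groups, by Pearson's r of log2(mean CPM + 1) among 10211 genes listed in all 4 tables and reaching 10 CPM in some group, were FUT8, a core fucosyltransferase (r = 0.953), PMP22, a peripheral myelin protein (r = 0.946), and NEDD9, an adhesion scaffold (r = 0.933). Those most like PDGFRA were VCAN (r = 0.954), PROS1, protein S of the clotting system (r = 0.943), and BMPER, a BMP-binding secreted protein (r = 0.929). The 16 points share cell types and fractions, so r describes these groups only.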

How the data were processed

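Short-read RNA-seq libraries of H1 cells were prepared with an NEBNext Ultra kit, per the labels' protocols. The authors deposited transcript-level count tables and TPM tables for the transcript assembly of each cell type, with a further pair for a combined assembly, which holds ectoderm libraries only. STAR, RSEM and build hg38 are named in the submitters' processing notes, without version or role. Columns with the fraction abbreviation Nei were read as nucleus, 1 mesoderm nucleoplasm column was assigned as the only library of its group, and 2 columns matching no sample were left out.

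Counts as deposited were summed by Ensembl gene. Transcripts with no Ensembl gene, 0.277% to 9.60% of a library's counts in the own-assembly tables, stayed in the CPM totals and out of the gene tests. edgeR 4.0.16 (R 4.3.3) fitted all libraries of a cell type for fractions, and 2 cell types on genes listed in both tables for cell types, with TMM scaling, filterByExpr at a minimum count of 10 and calls at adjusted p of 0.05. The spread is 1 estimate shared by the groups in a fit, so the lone nucleoplasm library adds none. Group SDs are over 3 libraries. Tables were assembled separately per cell type, so transcript models differ between them in comparisons of cell types. Alternatives were DESeq2 1.42.0 and its size factors, total counts, no filter, limma on log2(TPM + 1) of the authors' TPM, a replicate block, and leaving out each library. Method code was tested on simulated counts. No 2 replicate libraries agreed within counting noise. The members, gene lists and tests were chosen with earlier results of these data known. All 10 members are named, isoforms where they took 20% of a gene's counts in some group, and from each list up to 3 genes of largest change in mesoderm against hPSC cytoplasm. VCAN between cytoplasm and nucleus was named after its value was seen. Intervals and zero limits cover counting error only.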

Additional observations from a re-analysis of the deposited data

Results flagged for a closer look

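The cytoplasm to nucleus balance of several members differed between mesoderm and another cell type by the interaction test, which is what set these results apart. PDGFRA differed by -2.01 between mesoderm and hPSC (adjusted p = 0.00288), with 12 of 12 fits that left out 1 library keeping the call. SNAI2 differed by 2.29 between mesoderm and ectoderm (adjusted p = 1.73e-04), also in 12 of 12 such fits. HAND1 differed by 2.06 between mesoderm and endoderm (adjusted p = 1.62e-04), again in 12 of 12. The HAND1 difference was smaller with total-count scaling, where it passed, and smaller again in TPM, where it did not pass. The fraction controls went against the cytoplasm and nucleus labels of ectoderm, and in part against those of hPSC and endoderm. Leaving out libraries does not address this. Mesoderm nucleus held only 8 to 14 counts of SNAI2 a library.

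Between mesoderm and endoderm, TBX3 differed by 0.74 (adjusted p = 0.018; 12 of 12 fits), HAPLN1 by 0.55 (adjusted p = 0.026; 8 of 12), PDGFRA by 1.08 (adjusted p = 0.0371; 5 of 12) and SNAI2 by 1.07 (adjusted p = 0.0481; 3 of 12). The median over all genes in that fit was 0.22, and none of these 4 passed with total-count scaling. In TPM, HAPLN1 passed in the opposite direction (-0.94, limma, adjusted p = 0.00923), and TBX3, PDGFRA and SNAI2 did not pass.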

How the results depend on the processing

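Of 80 called gene-level results on the members, 69 were called in each fit that left out 1 library, 75 had the same direction in the authors' TPM and 5 the other, and 76 kept the call with a replicate block. Same-numbered libraries deviated together in 0 of 22 comparisons by the criterion that every pair correlates above 0.1. The 22 include comparisons of cell types, where equal numbers need not be paired. This criterion cannot show that fractions with the same number came from separate pellets. The main fits leave such pairing out, and the replicate block is given beside them. The replicate block ended the calls of SNAI2 for chromatin against nucleoplasm in ectoderm (adjusted p = 0.0566), of SNAI2 for mesoderm against ectoderm in nucleus (0.0709), of PDGFRA for the same cell types in chromatin (0.0643, leaving 1 member called in place of 2) and of SNAI2 for the interaction with endoderm (0.0699). It brought in HAPLN1 for chromatin against cytoplasm in ectoderm (0.0461) and PDGFRA for mesoderm against endoderm in cytoplasm (0.0202), and turned PDGFRA for ectoderm against hPSC to -0.011. For the results below the cause was not tested, except that fits on genes listed in all 4 tables hold only HAPLN1 and PDGFRA.

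The number of members called changed by over 1.5 times as follows. In TPM it went from 1 to 3 for chromatin against cytoplasm of hPSC and 3 to 5 for that of mesoderm, from 1 to 0 for chromatin against nucleoplasm of hPSC and 3 to 1 for that of ectoderm, for isoforms from 1 to 2 (hPSC), 2 to 1 (ectoderm) and 3 to 5 (mesoderm), and for the interactions from 1 to 3 with hPSC, from 1 to 3 with ectoderm and from 5 to 2 with endoderm, both of the 2 (HAPLN1 and TBXT) in the negative direction. With total counts it went from 3 to 1 for chromatin against nucleoplasm in ectoderm, from 5 to 3 for mesoderm against endoderm in nucleus, from 2 to 1 for mesoderm against ectoderm in chromatin, and for the interactions from 1 to 2 with ectoderm and from 5 to 1 with endoderm. DESeq2 gave 2 isoforms in hPSC, and a fit of only the groups compared gave 2 for chromatin against nucleoplasm in hPSC. On genes in all 4 tables, mesoderm cytoplasm gave 1 against each of hPSC, ectoderm and endoderm, mesoderm against endoderm 2 in nucleus and 2 in chromatin, ectoderm against hPSC 1, endoderm against hPSC 2, and the interactions 0 with ectoderm and 2 with endoderm. Leaving out 1 library gave 1 to 2 for chromatin against cytoplasm, for isoforms and for the interaction in hPSC, in each case 2 without hPSC cytoplasm replicate 1. It gave 1 to 3 for chromatin against nucleoplasm in ectoderm, 1 for mesoderm against ectoderm in chromatin, and 2 to 5 for the interaction with endoderm.

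Directions turned in TPM for PDGFRA in hPSC between cytoplasm and nucleus (-0.0012) and between chromatin and nucleoplasm (0.12, and 0.15 in ectoderm), HAPLN1 for chromatin against cytoplasm in ectoderm (0.70), TBX3 for that contrast in mesoderm (1.14), HAND1 for chromatin against nucleoplasm in endoderm (0.0184), the TBX3 isoform without the 60-base exon (-0.89), SNAI2 for mesoderm against ectoderm in nucleus (0.15), HAND1 for mesoderm against endoderm in nucleus (0.67) and PDGFRA for ectoderm against hPSC (-0.0343). They also turned in TPM for the interactions of HAPLN1 (-1.82) and TBX3 (-1.07) with hPSC and of HAPLN1 (-0.94), SNAI2 (-0.36) and TBX3 (-0.71) with endoderm. With total counts, FOXF1 in endoderm gave 0.31, TBX3 in mesoderm chromatin 0.26, HAND1 for mesoderm against endoderm in nucleus 0.0319, and the interactions of HAPLN1 and TBX3 with endoderm -0.28 and -0.0787. TBX3 in mesoderm chromatin also gave 0.0623 with DESeq2, 0.0636 with its size factors and 0.0147 with only the groups compared. Without 1 library, values of both signs were seen for cytoplasm against nucleus in HAND1 of endoderm (-0.044 to 0.43) and TBX3 of mesoderm (-0.049 to 0.0274), for chromatin against cytoplasm of mesoderm in HAPLN1 (-0.19 to 0.49) and TBX3 (-0.0515 to 0.0291), for SNAI2 in mesoderm chromatin against ectoderm (-0.0428 to 0.56) and endoderm (-0.0392 to 0.33), and for PDGFRA of ectoderm against hPSC (-0.17 to 0.23).

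The share of calls that were higher moved with scaling. For cytoplasm over nucleus it was 54.2% for hPSC (34.0% in TPM), 53.7% for ectoderm (75.5% in TPM, 78.0% with total counts), 49.2% for endoderm (62.9% and 71.8%) and 50.7% for mesoderm (10.7% in TPM). For the interaction with endoderm it was 61.3%, against 2.0% in TPM and 12.9% with total counts. Depth limits TBXT in mesoderm, FOXF1 in ectoderm and TBX3 in hPSC, each with at most 5 counts a library.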
